A study of Mus musculus with 2 samples.

Results

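In 31 protein-coding genes of the mouse hippocampus, transcripts annotated as retaining an intron held at least 60% of the gene's transcript abundance in each of 2 RNA-seq libraries. The 31 were chosen from 6072 genes that have an annotated protein_coding transcript and at least 2000 expected counts summed over both libraries. For each transcript the deposited table gives IsoPct, the percent of its gene's TPM (a transcript abundance corrected for length and depth) that the transcript holds. The values that chose the genes were the summed IsoPct of transcripts of the annotation class retained_intron, so those shares are a description and were not tested. Of the 6072 genes, 0.511% met the threshold, and 3912 had an annotated retained_intron transcript at all.

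Both libraries form a single group. They were made from total RNA (300 ng) of the layer of hippocampus of B6CASTF1/J mice, an F1 hybrid of the C57BL/6 and CAST strains, all female and 25 days old, with no treatment named. Ribosomal RNA had been reduced, strand information was kept and ERCC spike-in RNAs had been added. The labels give each replicate a biosample of its own but the same donor entry, so the spread between them may be technical. With 1 group there is no contrast between conditions, and the only comparison of levels is replicate 2 against replicate 1, 1 library against 1, without p-values.

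Introns are normally removed from a pre-mRNA while it is still in the nucleus. A transcript that keeps an intron is often held in the nucleus, or is degraded after export where the intron brings a stop codon into the reading frame. In the brain, neurons are known to keep some incompletely spliced transcripts in the nucleus and to finish their splicing after stimulation. The GENCODE class retained_intron is broader than this: it marks an alternative transcript thought to contain intronic sequence relative to coding transcripts of the gene, and it also covers short models that begin or end inside an intron.

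The introns themselves show what these models add. The leading retained_intron transcript of a gene, the one of highest mean TPM, held at least 1 complete intron of a protein_coding transcript in 10 of the 31 genes. In 8 of these it held exactly 1, and 6 of the 8 are shown here. The other two introns, of 154 bases in Elp5 and 702 bases in Cers4, lie in genes outside the naming rule. They were read out of the GENCODE M21 transcript sequences (mm10) and are written 5′ to 3′ on the transcribed strand. Capitals mark the GT and AG ends of the intron and the first stop codon met when the coding frame of the upstream exon is read on into it.
Rps20 intron in Rps20-201, chr4:3835292-3835483, minus strand: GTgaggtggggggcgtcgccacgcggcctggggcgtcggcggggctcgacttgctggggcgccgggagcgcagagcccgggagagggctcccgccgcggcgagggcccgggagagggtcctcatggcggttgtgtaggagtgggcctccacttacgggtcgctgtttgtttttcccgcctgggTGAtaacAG
Prelid1 intron in Prelid1-202, chr13:55324445-55324526, plus strand: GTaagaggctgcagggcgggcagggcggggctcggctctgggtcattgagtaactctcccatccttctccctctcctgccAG
Mrps26 intron in Mrps26-201, chr2:130564228-130564307, plus strand: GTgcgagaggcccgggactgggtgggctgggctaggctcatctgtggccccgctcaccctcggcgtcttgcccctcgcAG
Carmil2 intron in Carmil2-201, chr8:105690920-105691082, plus strand: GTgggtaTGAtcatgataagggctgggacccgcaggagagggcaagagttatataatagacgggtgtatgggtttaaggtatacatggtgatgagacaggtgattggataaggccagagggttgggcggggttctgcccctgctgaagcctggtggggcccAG
Clasrp intron in Clasrp-205, chr7:19584531-19584783, minus strand: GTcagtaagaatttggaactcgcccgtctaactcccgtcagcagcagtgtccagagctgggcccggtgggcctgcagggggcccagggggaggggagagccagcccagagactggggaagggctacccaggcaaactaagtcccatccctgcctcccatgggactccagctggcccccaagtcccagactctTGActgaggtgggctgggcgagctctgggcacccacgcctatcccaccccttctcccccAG
Eme2 intron in Eme2-203, chr17:24893399-24893550, minus strand: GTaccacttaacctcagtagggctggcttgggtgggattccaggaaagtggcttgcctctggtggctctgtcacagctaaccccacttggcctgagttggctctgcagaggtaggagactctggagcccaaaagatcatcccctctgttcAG

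All 6 lie between coding exons, begin with GT and end with AG, and their lengths run from 80 bases in Mrps26 to 253 bases in Clasrp. The Carmil2 intron brings a TGA stop at its base 8. The Rps20 intron reads through almost to its end, with a TGA at base 184 of 192. The frame was taken from a protein_coding transcript that holds the intron, and not from the retained_intron model itself. Carmil2-201 begins at base 105690906 of chromosome 8 and Rps20-201 at base 3835488 of chromosome 4, so few bases precede either intron. Whether these models carry a reading frame into the intron was not tested. The introns of Prelid1 (82 bases), Mrps26 and Eme2 (152 bases) hold no stop in that frame. Their lengths leave a remainder of 1, 2 and 2 bases on division by 3, so that a transcript keeping any of them shifts the frame downstream.

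Over all members, the leading models held 13 complete introns with a median length of 154 bases (74 to 702) and a median GC content of 59.7%. In the other 3881 genes with a retained_intron transcript, the leading models held 1559 complete introns, with a median of 360 bases and 50.7% GC. The 295 other introns of the 31 genes had a median of 389 bases. An in-frame stop was present in 10 of the 13 member introns (76.9%), against 90.0% of the 1304 introns of the other genes that lie between coding exons. All 13 had GT and AG ends. Median splice-site scores, from position weights of the splice junctions in these transcripts, were 7.17 against 7.68 bits for donors and 8.19 against 8.29 bits for acceptors. The order of the donor scores did not hold: with the introns of every retained_intron transcript of at least 10% of gene TPM, the member median was 8.13 bits. The weakest donor score among the printed introns was that of Eme2, at 1.96 bits. The weakest acceptor score was that of Carmil2, at 1.43 bits.

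The label of these genes was checked against what the models contain. The leading retained_intron transcripts of the 31 genes consisted mostly of sequence that the coding transcripts also hold: a median of 81.7% of their bases lay in exons of protein_coding transcripts, untranslated parts included, against 58.2% in the other 3881 genes. At least 75% of bases were such exon sequence in 23 of the 31 (74.2%) and in 30.5% of the other genes. More bases lay outside than inside these exons in 2 members, Srsf11-208 and Clasrp-205. No complete intron was held by 21 of the 31 leading models (67.7%), compared with 74.6% of those of the other genes. In most of these genes the leading model therefore holds only part of an intron, and the 31 are called here by their rule, as genes with a retained_intron share of at least 60%.

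**Figure D1:**
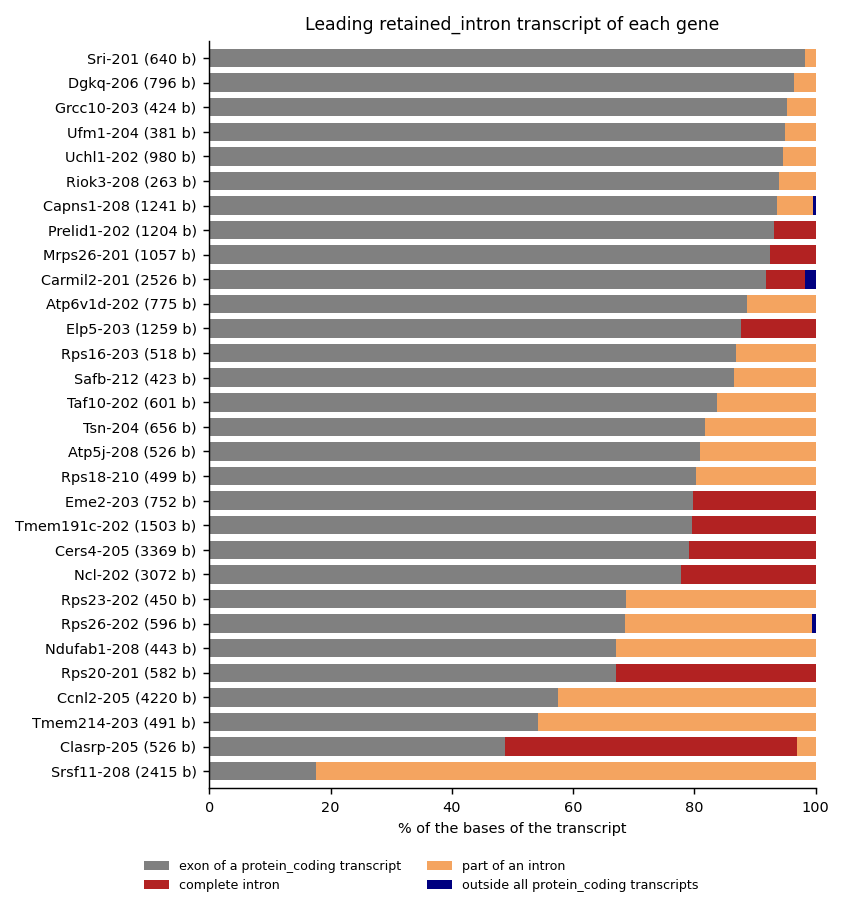
Stacked bars give the percent of bases (x axis) of the leading retained_intron transcript of 30 genes (y axis, length in bases in parentheses) that lie in exons of protein_coding transcripts, in a complete intron, in part of an intron, or outside all protein_coding transcripts. Complete introns appear in 10 bars, and exon sequence makes up at least 75% of 22.

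The leading models were mostly shorter than the coding ones, as in this class at large. The median length of the leading retained_intron transcript was 640 bases, that of the leading protein_coding transcript 2442 bases, and 17 of the 31 retained_intron models were under 700 bases. In the other 3881 genes the leading retained_intron models had a median of 1028 bases. Of them 29.7% were under 700 bases, against 54.8% in the members. The retained_intron model was the shorter in 30 of the 31 genes, and in 84.3% of the others, where the median ratio of lengths was 0.36 beside 0.41 in the members. The exception among members was Ccnl2, where Ccnl2-205 (4220 bases) is longer than the coding Ccnl2-201 (2442 bases). Rps20 shows the common case: Rps20-201 has 582 bases and the coding Rps20-203 has 3706, of which 357 are coding sequence. In Mrps26 the lengths were 1057 bases for Mrps26-201 and 4278 for the coding Mrps26-202.

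**Figure D2:**
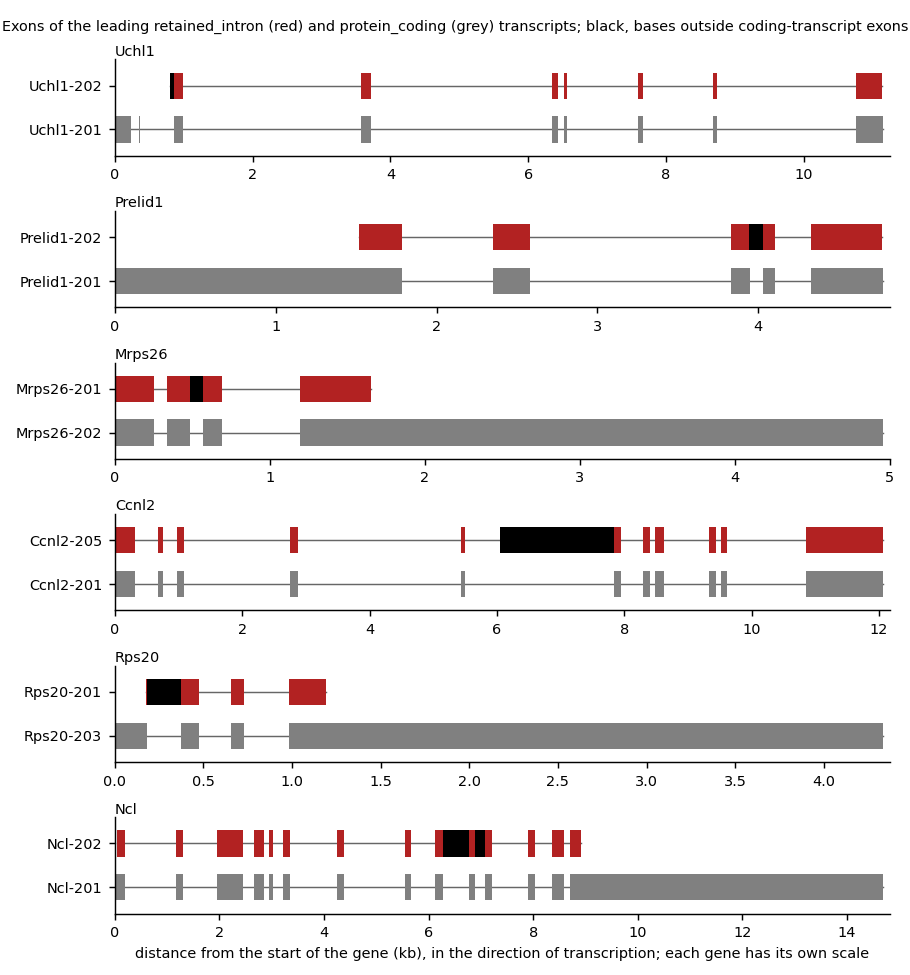
Exons (boxes) of the leading retained_intron (red) and protein_coding (grey) transcript of 6 genes against distance from the gene start in kb, with bases outside all coding-transcript exons in black. Prelid1 and Mrps26 differ inside the gene by introns of 82 and 80 bases, Uchl1 by 52 bases in front of an exon, and Ccnl2-205 carries 1790 bases that are part of an intron.

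A read had 100 bases, as follows from the deposited effective lengths. The part of the leading model outside coding-transcript exons was longer than this in 15 of the 31 genes and no longer in 16. Of all 100-base stretches in a leading retained_intron transcript, the number found in no protein_coding transcript of the gene was 9 in Sri-201, 13 in Riok3-208, 19 in Grcc10-203 and Ufm1-204, 28 in Dgkq-206 and 52 in Uchl1-202. It reached 1887 in Ccnl2-205 and 1987 in Srsf11-208. In 11 of the 31 leading models some 100-base stretches also occur in transcripts of other genes, which leaves the assignment of reads to them uncertain. This share was 93.8% in Grcc10-203, 70.6% in Rps16-203, 51.8% in Eme2-203, 50.7% in Rps23-202 and 44.1% in Rps20-201. It was 0 in Uchl1-202, Carmil2-201, Mrps26-201, Ccnl2-205 and Srsf11-208, among others.

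The selecting shares ranged from 61.2% to 99.9% in both libraries, with medians of 72.5% in replicate 1 and 70.2% in replicate 2. Over all 6072 genes the medians were 3.45% and 2.14%. A retained_intron transcript was the most abundant transcript in both libraries in 26 of the 31, and in 1.15% of the 6072 genes. The rule itself favours this among members. In 14 of the 31 a single such transcript alone passed 60%. Protein_coding transcripts held a median of 22.8% of the TPM of a member (mean of both libraries). Just inside the threshold were Capns1 (64.5% and 61.2% in replicates 1 and 2), Clasrp (62.2% and 61.2%), Riok3 (61.2% and 61.6%), Eme2 (65.8% and 61.4%) and Srsf11 (66.0% and 61.5%). Just outside were Man2c1 (62.4% and 58.8%), Flna (59.5% and 58.8%), Ctsb (59.0% and 58.5%), Sart1 (66.6% and 58.2%) and Prpf39 (60.1% and 58.0%). The step between the groups, from 58.8% to 61.2% in the lower library, is smaller than the difference between libraries within several of these genes.

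The authors deposited a second quantification of the same libraries, in which transcripts were quantified from the reads directly rather than from alignments. It was not used for the selection, although it comes from the same reads. Its effective lengths are shorter: for transcripts over 3000 bases a median of 347 and 343 bases came off the length in replicates 1 and 2, against 99 for spike-ins in the selecting table. For Grcc10-203, of 424 bases, the effective length in replicate 1 was 118 bases, against 325, so TPM levels of short models are on different scales in the tables. By it 13 of the 31 members again had at least 60% of gene TPM in retained_intron transcripts in each library, where 0.609% of the 6072 genes did. These were Carmil2, Rps20, Taf10, Mrps26, Rps16, Dgkq, Atp6v1d, Prelid1, Ndufab1, Ccnl2, Tmem214, Eme2 and Sri. A further 11 lay between 43.7% and 64.7%. The remaining 7, among them Uchl1, Atp5j, Grcc10, Rps18, Capns1 and Rps23, were under 15% in each library, and no member had a mean between 15% and 40%. Leading models with a complete intron numbered 5 of 13, 5 of 11 and 0 of 7 in these groups. The median number of 100-base stretches absent from coding transcripts was 176, 202 and 74.

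**Figure D3:**
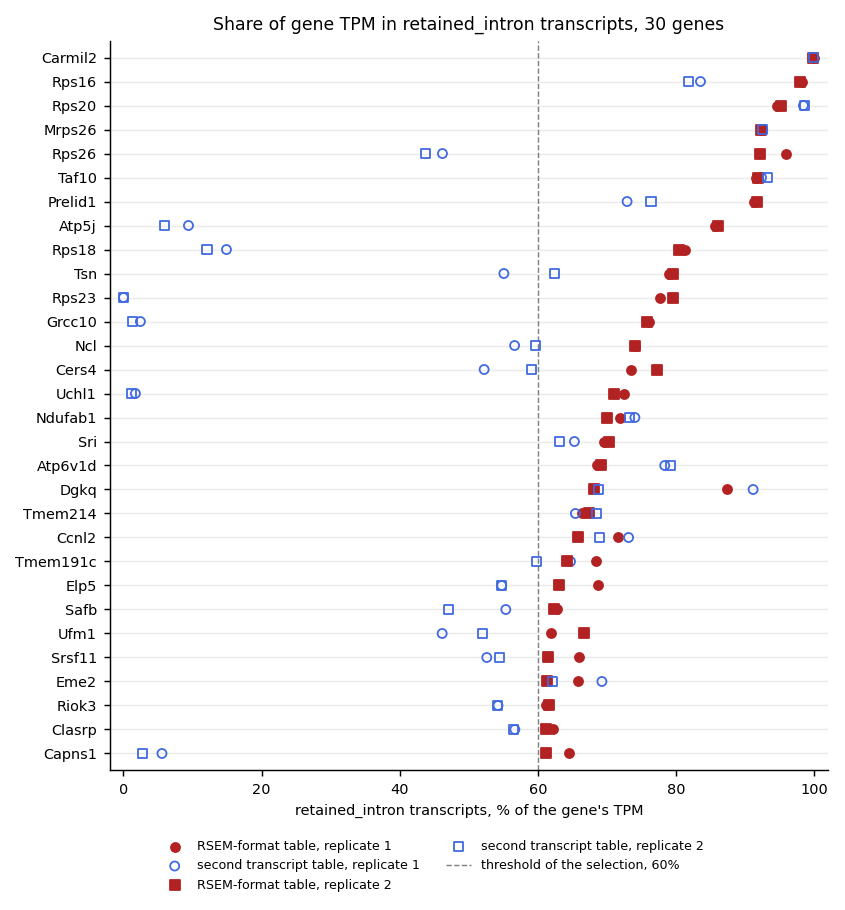
Percent of gene TPM in retained_intron transcripts (x axis) for 30 genes (y axis), in replicates 1 (circles) and 2 (squares), from the table used for the selection (filled) and from the second table (open). All filled points lie right of the 60% line by construction, whereas 6 genes have both open points under 15%.

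By share of expected counts instead of TPM, which gives no extra weight to short transcripts, 13 of the 31 members were at or above 60% in each library, against 0.346% of the 6072 genes. In 7 members the share was at least 60% in each library both by counts and by the second table: Rps16, Ndufab1, Rps20, Prelid1, Ccnl2, Mrps26 and Carmil2. In 9 members it was under 50% of counts in each library. Ufm1, a ubiquitin-like protein modifier, was the extreme: retained_intron transcripts held 61.9% and 66.6% of its TPM but 9.66% and 11.2% of its counts. Its leading model Ufm1-204 has 381 bases, and the coding Ufm1-203 has 4890.

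Uchl1, a deubiquitinating enzyme abundant in neurons, had the highest gene TPM of the members, 357 in replicate 1 and 392 in replicate 2. Uchl1-202 (chr5:66676892-66687229, plus strand) held 248 and 267 TPM, and the coding Uchl1-201 held 98.1 and 113 TPM. The deposited bounds of its TPM, 229 to 253 in replicate 1, did not overlap those of Uchl1-201, 86.1 to 104. In the second table Uchl1-202 was listed at 0 in both libraries and Uchl1-201 at 562 and 632 TPM. The order of the same pair of transcripts was thus opposite in the quantifications, with 52 of the 980 bases of Uchl1-202 outside coding-transcript exons. Uchl1-201 in turn has first exons that Uchl1-202 lacks.

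Of the 13 gene lists drawn up beforehand, that of ribosomal protein genes held the most members. Of 69 such genes among the 6072, 6 were members (8.70%, beside 0.511% of all), among them Rps16, Rps18, Rps20, Rps23 and Rps26. All 6 encode proteins of the small subunit. The median lower-library share over the 69 was 1.30%, so most ribosomal protein genes were far below the threshold. These genes have many near-identical pseudogene copies, and stretches shared with other genes made up 28.2% to 70.6% of the leading models of those named.

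Rps16 had 191 and 202 gene TPM, of which retained_intron transcripts held 98.2% and 97.9%. In the second table they held 83.5% and 81.8%. The retained_intron transcript Rps16-202 had 73.9 and 73.5 TPM in the selecting table but 2.58 and 2.43 in the second. Rps20 had 115 and 128 gene TPM. Rps20-201, which contains the 192-base intron printed above, had 91.0 and 111 TPM, and Rps20-203, the coding one, had 6.23 and 6.24. The second table gave retained_intron shares of 98.4% and 98.6% for Rps20, but divided them differently between its models. There Rps20-201 had 169 and 234 TPM and the retained_intron transcript Rps20-202 had 175 and 169. In the selecting table Rps20-202 had 17.9 and 10.7 TPM. By expected counts the shares were lower, 69.6% and 72.1%, the coding transcript being longer.

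Rps26 had 132 and 131 gene TPM. Its retained_intron share was 95.9% and 92.1% by the selecting table and 46.2% and 43.7% by the second. For Rps18, with 130 and 142 gene TPM, the shares were 81.2% and 80.4% against 14.9% and 12.1%. These 2 genes were therefore given different leading transcripts by the tables.

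Rps23 went furthest in this respect. Its single retained_intron transcript, Rps23-202 (450 bases), held 66.2 and 80.0 TPM in the selecting table and was listed at 0 in both libraries in the second. There Rps23-203, of the class processed_transcript, held 501 and 560 TPM, against 4.08 and 2.23 TPM in the selecting table. Its gene TPM in the second table was 6.11 times that in the first, the highest ratio of any member. The median ratio was 1.67 over members and 1.61 over all 6072 genes. These ratios also carry the difference in effective lengths.

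Of 68 genes of the respiratory chain and ATP synthase, 2 were members (2.94%), and the median lower-library share of the list was 0.81%. Atp5j, a subunit of the stalk of ATP synthase, had 153 and 166 gene TPM with a retained_intron share of 85.7% and 86.0%. In the second table the share was 9.41% and 5.89%, and a coding transcript, Atp5j-203, held 224 and 270 TPM there but 0.79 and 2.08 TPM in the selecting table. Ndufab1, the mitochondrial acyl carrier protein and a complex I subunit, had 129 and 130 gene TPM. Its shares were 71.9% and 70.0%, and 74.0% and 73.2% in the second table. These sums were divided differently between its retained_intron models. The leading Ndufab1-208 had 44.7 and 42.95 TPM in the selecting table but 1.70 and 0.355 in the second. Ndufab1-205 had 42.77 and 44.58 TPM in the selecting table and 92.5 and 101.8 in the second. In the selecting table Ndufab1-208 was the higher of this pair in replicate 1 and Ndufab1-205 in replicate 2.

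Outside the lists, Prelid1, which carries phosphatidic acid between mitochondrial membranes, and Mrps26, a protein of the mitochondrial ribosome, had high shares that varied little between libraries (91.2% and 91.7%, and 92.3% and 92.2%). Prelid1-202 held 57.2 and 61.5 TPM and the coding Prelid1-201 held 5.50 and 5.53. In the second table these values were 63.5 and 76.1 for Prelid1-202 and 23.6 and 23.6 for Prelid1-201. Mrps26-201 held 33.7 and 36.3 TPM and the coding Mrps26-202 held 2.81 and 3.06, while the second table gave 52.5 and 58.4 against 4.24 and 4.76. The retained_intron model was the higher in both libraries and both quantifications of these 2 genes. Both coding models are the longer by extended end exons, as the maps of exons show, whereas the intron sets them apart by 82 and 80 bases.

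The lists of RNA-processing genes held at most 1 member each. The members Taf10, Clasrp and Safb are on none of the lists. Srsf11, a serine/arginine-rich splicing factor, was the only member among 21 SR proteins and partners, whose median lower-library share was 20.7%. Ccnl2, the cyclin partner of CDK11-type kinases found in nuclear speckles, was the only one of 10 CLK, SR kinase and cyclin L genes, whose median was 36.4%. Ncl, which encodes nucleolin and hosts small nucleolar RNAs in its introns, was the only one of 10 genes on a list of snoRNA hosts, with a median of 7.73%. Whether members off that list host such RNAs was not examined. These list medians lie above the 2.04% of all 6072 genes. The 1 gene in each that passed 60% made up 4.76%, 10% and 10% of its list, beside 0.511% of all 6072 genes. Each of these percents rests on 1 gene.

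Ccnl2-205 had 18.8 TPM in replicate 1 and 12.6 in replicate 2, and the coding Ccnl2-201 had 8.36 and 8.32. In the second table these were 27.3 and 20.2 against 15.4 and 12.1. Ncl-202, which keeps introns of 190 and 492 bases, had 37.7 and 34.4 TPM beside 13.4 and 12.4 for the coding Ncl-201. Srsf11-208, of whose bases 82.3% are part of an intron, had 16.5 and 9.0 TPM. Its coding Srsf11-202 had 17.5 and 11.9 TPM, so the coding transcript was the single highest one. The majority was reached by summing retained_intron models, of which 11 are annotated. Of these, Srsf11-207 and Srsf11-215 were at 0 TPM in both libraries. Taf10, a subunit of the general transcription factor TFIID, had 50.8 and 52.0 gene TPM and shares of 91.5% and 91.8%, with 92.4% and 93.2% in the second table. Clasrp, a partner of CLK kinases, had 40.6 and 28.7 gene TPM.

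No member was found among 12 U1 and other snRNP proteins, 26 hnRNP and neuronal RNA-binding proteins, 15 DEAD-box and RNA surveillance genes, 15 tRNA ligases, 30 glutamate and GABA receptors, 16 synaptic vesicle proteins, 73 zinc fingers and 30 chromatin regulators. With 0.511% of all 6072 genes meeting the rule, lists of these sizes would mostly hold no member, so nothing is read from these absences. Over the 13 lists 11 members were placed.

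Outside the lists, Carmil2, a regulator of actin capping protein, had the highest share. Its retained_intron transcripts held 99.9% of TPM in both libraries and both tables. Carmil2-201 had 25.2 and 25.4 TPM and Carmil2-202 had 8.12 and 6.95, while the coding Carmil2-203 had 0.02 and 0.04. Atp6v1d, the D subunit of the vacuolar proton pump, had 103 and 108 gene TPM, with shares of 68.5% and 69.2% of TPM, 78.4% and 79.2% in the second table, but 29.8% and 29.9% of counts. Grcc10 had 145 and 151 gene TPM, with shares of 76.0% and 75.8% that were 2.45% and 1.35% in the second table. Capns1, the small subunit of calpain proteases, had 91.6 and 88.5 gene TPM and shares of 5.57% and 2.74% in the second table.

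Among the lower members, Sri, the calcium-binding protein sorcin, had 43.1 and 44.9 gene TPM, and Tsn, the nucleic acid-binding translin, had 43.2 and 42.5. Safb, a nuclear scaffold attachment factor, had 70.5 and 59.9. Riok3, an atypical protein kinase, had 46.8 and 39.3. Tmem191c had 46.4 and 34.0 and Tmem214 had 29.5 and 24.7, both named for membrane-spanning segments. Elp5, an Elongator subunit, had 36.8 and 31.3. Eme2, a partner of a structure-specific DNA endonuclease, had 25.5 and 22.0, and Cers4, a ceramide synthase, had 18.5 and 14.4. Their second-table shares ran from 47.1% (Safb, replicate 2) to 69.3% (Eme2, replicate 1).

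Dgkq, a diacylglycerol kinase, had the shares that differed most between libraries, 87.3% and 68.1%, at gene levels of 19.5 and 18.1 TPM. Dgkq-207, of 5213 bases, had 3.62 TPM in replicate 1 and 0.87 in replicate 2. The coding Dgkq-201, of 4938 bases, had 0.58 and 4.34 TPM. The deposited bounds for Dgkq-201 were 0.000555 to 1.74 in replicate 1 and 2.97 to 4.84 in replicate 2, which did not overlap. The second table had the same order, with Dgkq-201 at 0.0264 and 6.42 TPM.

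Depth was 34919989 expected counts in replicate 1 and 41206890 in replicate 2, of which the 31 genes took 0.189% and 0.191%. Markers of hippocampal tissue were present (Camk2a at 1577 and 1349 TPM, Slc17a7 at 648 and 630), as were those of astrocytes and oligodendrocytes, and the cerebellar markers Gabra6 and Cbln3 were at 0.05 to 0.17 TPM. Of the choroid plexus markers, Ttr was at 23.5 and 55.1 TPM, Kl at 3.43 and 3.38, and Folr1 at 0 and 0.76. In bulk tissue, fewer cells of a type and less RNA per cell cannot be told apart. All retained_intron transcripts together took 3.68% of transcript TPM in replicate 1 and 2.87% in replicate 2. Of nuclear RNAs, Malat1 was at 5613 and 3254 TPM and Neat1 at 17.1 and 10.9. Their part in the results on replicates that follow was not tested.

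At the level of the gene the members changed little between libraries. The median log2 ratio of gene TPM, replicate 2 over replicate 1, was -0.01 over the 31 (range -0.54 to 0.28) and -0.07 over the 6072 genes. None of the 31 differed by 2-fold in gene TPM. Over all 6072 genes, 0% were at least 2-fold lower and 0.0165% at least 2-fold higher in replicate 2, this being the 1 gene Ttr with a log2 ratio of 1.23. The highest ratios were those of Ufm1 (0.28; 29.7 and 36.0 TPM), Rps23 (0.24; 85.2 and 101 TPM) and Rps20 (0.16). The lowest were those of Srsf11 (-0.54; 75.3 and 51.8 TPM), Clasrp (-0.50) and Tmem191c (-0.45). There being 1 library on each side, none of these differences has a replicate check.

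The ratio of summed retained_intron transcripts is tied to the selection, since members had to hold at least 60% of gene TPM in them in each library, so it stays close to the gene's own ratio. It is given as a description. Its median on the log2 scale was -0.02 over the 31 members (range -0.64 to 0.38), with 17 lower and 14 higher in replicate 2. Over the 3860 genes with a ratio it was -0.57, with 3315 lower. For summed protein_coding transcripts the medians were 0.02 over the members and -0.03 over the 6072 genes. The largest member ratios for coding sums were those of Dgkq (2.90), Rps18 (0.94; 14.0 and 27.0 TPM), Rps26 (0.93; 5.43 and 10.4 TPM) and, downward, Clasrp (-1.10; 5.79 and 2.70 TPM).

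**Figure D4:**
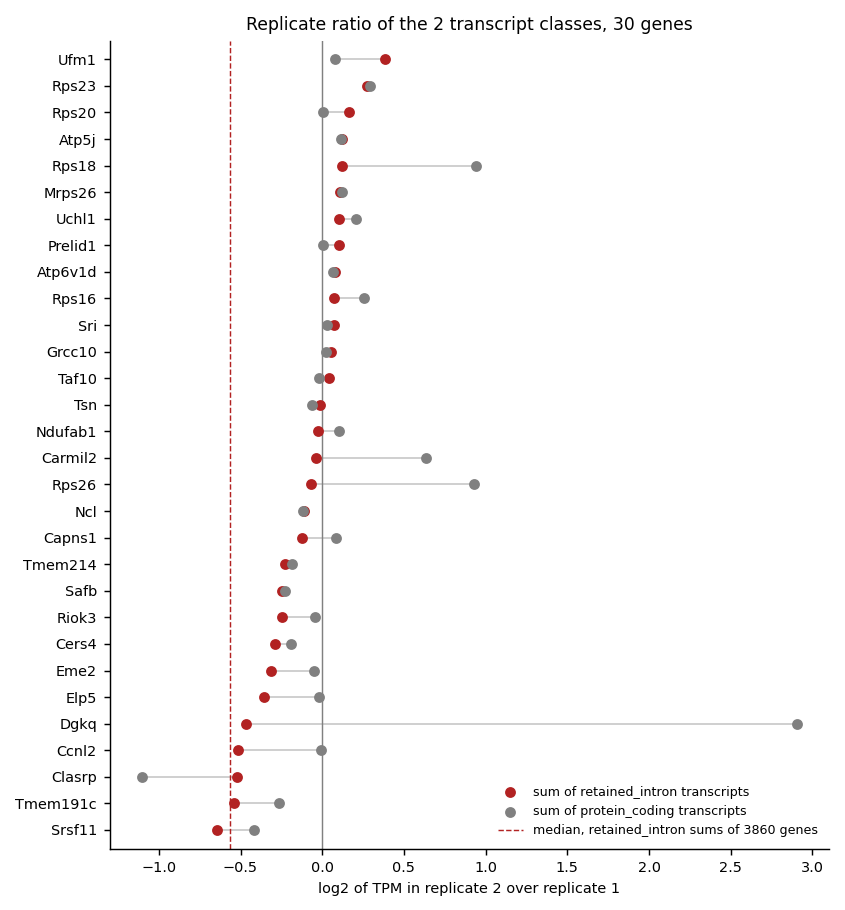
Log2 ratio of TPM in replicate 2 over replicate 1 (x axis) for the summed retained_intron (red) and protein_coding (grey) transcripts of 30 genes (y axis), with the median of the retained_intron sums of 3860 genes as a dashed line. The red points of the ribosomal protein genes plotted lie between -0.07 (Rps26) and 0.27 (Rps23), and those of Srsf11, Tmem191c, Clasrp and Ccnl2 lie near the dashed line at -0.57. For Carmil2 the coding sum had under 3 counts in a library, which was set to 3.

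Within the 31 genes the ratio varied with how much of a transcript is intronic. Of their retained_intron transcripts, 85 had at least 50 expected counts over both libraries. The 41 transcripts with under 25% of bases outside coding-transcript exons were split, 18 lower and the others not lower in replicate 2. Of the 44 with at least 25%, 40 were lower. The median log2 ratio was 0.09 in transcripts with under 10% of such bases (16 transcripts), 0.06 from 10% to 25% (25), -0.30 from 25% to 50% (19), -0.49 from 50% to 75% (17) and -0.76 above 75% (8). The last range holds few transcripts, and without it the medians still run from 0.09 to -0.49. Across the 85 transcripts Pearson's r was -0.43 and Spearman's rho was -0.53. The points share 2 libraries and 31 genes, and the rule that chose the genes used their values, so these are descriptions.

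In the other genes the medians over the same ranges were -0.20 (526 transcripts), -0.38 (988), -0.56 (1502), -0.65 (1262) and -0.78 (1415). The difference between members and other genes was 0.44 on the log2 scale from 10% to 25% and 0.03 above 75%. The rule used these values too: of the members' transcripts under 25%, 23 of 41 are the leading models of their genes, which carry most of the selected share, as against 8 of 44 from 25% up. Nothing is read from that difference. In the second table the member medians were 0.05, -0.04, -0.13, -0.38 and -0.65, and those of the other genes were -0.16, -0.36, -0.52, -0.62 and -0.74.

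**Figure D5:**
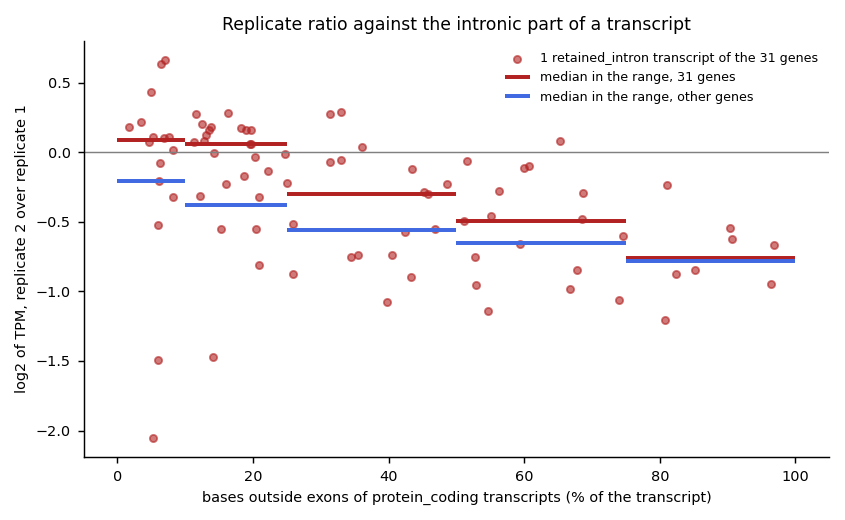
Log2 ratio of TPM in replicate 2 over replicate 1 (y axis) against the percent of a retained_intron transcript's bases outside exons of protein_coding transcripts (x axis), with 1 point per transcript of the 31 genes and bars for medians within 5 ranges. The red bars fall from 0.09 to -0.76 and the blue bars of the other genes from -0.20 to -0.78.

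Single genes show the same spread. Ccnl2-205, with 42.4% of bases outside coding-transcript exons, had a log2 ratio of -0.57 while the coding Ccnl2-201 was level in the selecting table. In the second table both were lower in replicate 2, Ccnl2-205 at 27.3 and 20.2 TPM and Ccnl2-201 at 15.4 and 12.1. Srsf11-208, with 82.3% of such bases, had a log2 ratio of -0.87 in the selecting table. Uchl1-202, with 5.31%, had 0.11, and Prelid1-202, with 6.81%, had 0.11. Dgkq-207 went the other way, with 5.28% of such bases and a log2 ratio of -2.06, the lowest of the 85. Other exceptions were Dgkq-210 (6.03% and -1.49) and Eme2-208 (14.0% and -1.47). Rps20-201 (33.0% and 0.29) and Rps23-202 (31.3% and 0.27) were higher in replicate 2 despite their larger intronic part.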

How the data were processed

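Total RNA-seq libraries of mouse hippocampus (1 group, n = 2) were analysed. The authors deposited gene and transcript tables in RSEM format, made from transcriptome alignments, with expected counts, TPM and IsoPct as a percent of gene TPM, per the deposited notes; they also deposited a second transcript table of estimated counts and TPM in kallisto format, made from reads. Build mm10 and annotation GENCODE M21 are per the labels and deposited notes; for aligner and quantifier, no version was given in the sources used here. Spike-in effective lengths were 99 bases under their lengths, hence the read length of 100; the second table takes a median of 347 and 343 bases off transcripts over 3000.

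The 31 genes, the lists and the naming rule were chosen with earlier results of these data known. Named were members of highest TPM, highest share, shares nearest the threshold, extreme second-table shares, extreme replicate ratios, and list members; further members and transcripts were described after their values were seen. Bases were classed against exons and introns of all protein_coding transcripts of the gene. Intron sequence was available only inside annotated transcripts, so splice-site weights came from 3961 complete introns in retained_intron transcripts, not from all introns as planned. Ratios used a floor of 3 counts for a library below it. The scripts were tested on simulated data for 6072 genes. There 100 of 100 genes set to a high retained-intron share and 0 of 100 set to a low one met the rule. The shares were set well away from the threshold. Counts were drawn per transcript, so the assignment of reads to overlapping models was not tested. Depth (34919989 and 41206890 expected counts) limits precision. Python 3.11.15, pandas 2.3.3, numpy 2.4.6, matplotlib 3.10.9, R 4.3.3, edgeR 4.0.16 (TMM) and DESeq2 1.42.0 (size factors, expected counts rounded) were used. Alternatives were other thresholds, count minimums, transcript classes, the second table, scalings and pseudocounts. Of the 31 genes counted, 1 is not reported here.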

Additional observations from a re-analysis of the deposited data

How the results depend on the processing

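With other settings 75 genes met the rule at a threshold of 50% and 12 at 75%, 92 at a minimum of 500 counts and 8 at 5000, 56 with only retained_intron and protein_coding transcripts in the denominator, and 94 with processed_transcript models added to the retained_intron class. Single libraries gave 33 and 44 genes. The second table gave 37 genes, 13 of them members, and shares of expected counts gave 21, again 13 of them members. Of 2 restrictions chosen after seeing the data, counting only retained_intron transcripts with a complete intron left 6 genes (Carmil2, Mrps26, Ncl, Prelid1, Rps20 and Tmem191c), and counting only those with at least 20% of bases outside coding-transcript exons left 7. At a threshold of 50%, 21 members passed in the second table and 20 by counts; single libraries at 60% gave 14 and 14, and 13 and 17. The median protein_coding share was 31.4% in the second table and 34.7% by counts, and 21.6% to 24.0% in single libraries. Spike-in scaling moved the median log2 ratio of members to -0.13 for genes and -0.14 for retained_intron sums (all genes: -0.17 and -0.70). TMM and DESeq2 scaling moved that of coding sums to 0.13 and 0.13 (all genes: 0.05). The sign of medians near 0 varied with scaling. With introns of every retained_intron transcript of at least 10% of gene TPM, the median donor score was 8.13 bits, above the 7.68 bits of the other genes' leading models, and 87.0% of member introns held a stop. No paired analysis was possible because there is only 1 group.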
